A study of Homo sapiens with 16 samples.

Results

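The RNA of U-937 cells was compared with that of SKNO-1 cells before any active treatment, across all genes of the deposited table of estimated counts. The members were the libraries that the labels call control: 2 of SKNO-1 and 2 of U-937, 4 of the 16 RNA-seq libraries in the series. Both are human acute myeloid leukaemia lines, and in both groups the cells had received the solvent DMSO for 24 h (0.1 µM in the labels). Both media held 10% FBS and 2% penicillin/streptomycin. GM-CSF, a myeloid growth factor, was in the SKNO-1 medium only, at 10 ng/mL, so line and growth factor cannot be told apart in any difference below. The remaining libraries received all-trans retinoic acid (ATRA), an activator of retinoic acid receptors, Corin, which inhibits the demethylase and deacetylases of the CoREST complex, or both. They are used here to repeat the contrast of the lines under the same treatment. Each line stands for 1 leukaemia, and the labels do not say whether replicates were separate cultures, so p-values measure only the spread between these libraries.

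Blood progenitors pass through a series of states on the way to granulocytes and monocytes, each with its own transcription factors and granule proteins. RUNX1, PU.1 and the C/EBP factors switch on the early granule genes, IRF8 favours the monocyte side, GATA2 and TAL1 mark early progenitors and the mast cell and erythroid side, and HOXA genes with their cofactor MEIS1 sustain self-renewal. Leukaemic fusion proteins hold cells at one of these stages. SKNO-1 is known for the RUNX1-RUNX1T1 fusion of t(8;21), and U-937 for the PICALM-MLLT10 fusion of t(10;11) and a monocyte-like phenotype.

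Estimated counts summed to 35.9 and 36.9 M in the SKNO-1 libraries and to 30.6 and 28.8 M in the U-937 libraries. SKNO-1 replicate 1 stood apart: 82.9% of its counts were in protein-coding genes, against 88.1 to 89.6% in the other 3, and its 10 most abundant genes took 16.2% against 9.81 to 11.1%. The SD of the log2 replicate difference over 9190 well-expressed genes was 0.353 for the SKNO-1 pair and 0.172 for the U-937 pair. Across the 9172 of these genes with a GC value, that difference correlated with GC content at -0.796 for SKNO-1 and -0.578 for U-937 (Pearson, a description across genes within libraries). Levels are given in CPM, counts scaled to a common library size by TMM, for SKNO-1 replicates 1 and 2 and then U-937 replicates 1 and 2. Log2 differences are U-937 minus SKNO-1, with their standard error (SE), and a gene is called at an adjusted p under 0.05 (edgeR's quasi-likelihood test, Benjamini-Hochberg over all genes tested). With 2 libraries against 2 an exact permutation test of 1 gene cannot go below 0.333.

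The lines differed in most genes. Of 17152 genes tested, 10261 were called (59.8%), 5013 higher in U-937 (29.2%) and 5248 lower (30.6%). A difference of at least 4-fold was called for 3822 genes (22.3%), 2125 higher in U-937 (12.4%) and 1697 lower (9.89%). The median log2 difference over all tested genes was -0.04 and became 0.14 when library totals alone set the scale, which moved the share of higher calls from 48.9% to 58.0%. Leaving out SKNO-1 replicate 1 or 2 gave 11991 and 11811 calls, and leaving out U-937 replicate 1 or 2 gave 6871 and 7241. Without U-937 replicate 1, genes called lower numbered 3485. At a level of 5 CPM, 9214 genes were expressed in both lines out of 11294 expressed in either. Because so many genes are called, each count below is read against these shares.

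**Figure D1:**
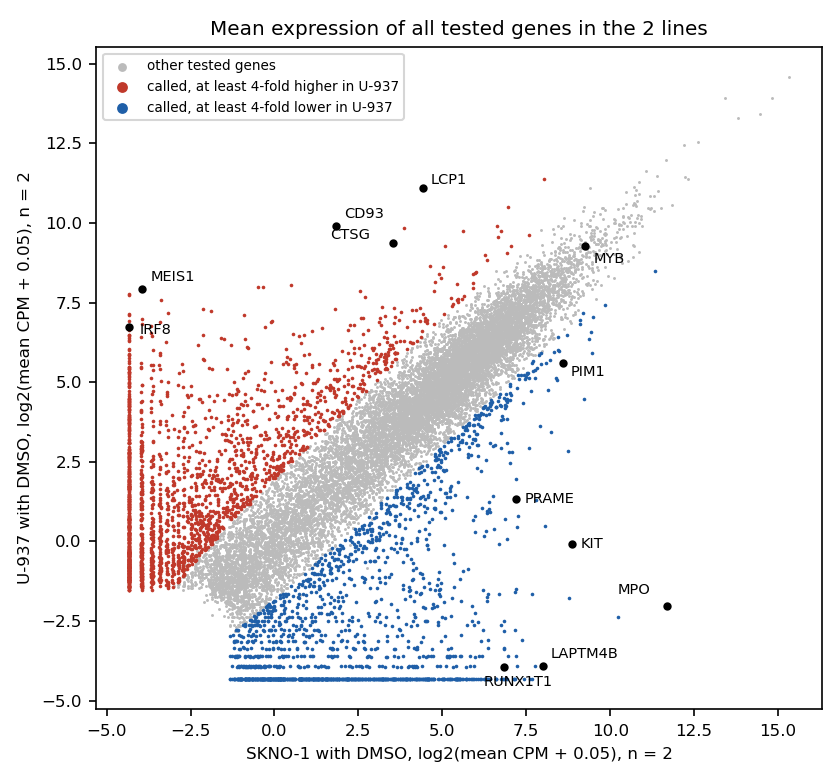
Mean level of each of the 17152 tested genes in SKNO-1 (horizontal axis) and U-937 (vertical axis), both as log2(mean CPM + 0.05) over 2 libraries; red and blue points are the 2125 and 1697 genes called and at least 4-fold apart. MYB lies on the diagonal, while genes along the left and lower edges have no or almost no counts in 1 line, such as IRF8 in SKNO-1 and LAPTM4B in U-937.

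The genes that mark the lines went with the labels. RUNX1T1, the ETO part of the SKNO-1 fusion on chromosome 8, was at 97.5 and 132 CPM in SKNO-1 and had 1 count over both U-937 libraries, or 7299 times as much in SKNO-1 (exact counting interval 1310 to 288300). Counts per gene do not separate a fusion transcript from an unrearranged one. All 4 fusion partner genes were called lower in U-937, against 30.6% of all genes. Only 1 of them, RUNX1T1, was at least 4-fold apart (background 9.89%). RUNX1, the other partner of that fusion, was at 125, 169, 89.5 and 85.8 CPM (log2 -0.75, SE 0.16, adjusted p = 0.00468). MLLT10, a partner in the U-937 fusion, was at 40.8 and 47.7 CPM against 20.5 and 20.9. PICALM, the clathrin assembly gene that supplies the other end of it, was at 137 and 160 CPM against 87.4 and 97.2, and its call was lost without U-937 replicate 1 (adjusted p = 0.055). The partner genes of the U-937 fusion were thus not the higher ones in U-937.

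The HOXA cluster was on in U-937 and off in SKNO-1. All 11 HOXA genes were called higher in U-937, all by at least 4-fold, against 29.2% and 12.4% of all genes. Of the 11, 10 had no count in either SKNO-1 library. HOXA9 (ENSG00000078399.18, GRCh38 chromosome 7, 27162438 to 27175180) was at 56.1 and 52.2 CPM in U-937, at least 1237-fold higher against a floor of 3 counts over the SKNO-1 pair (adjusted p = 1.53e-06). HOXA10 (ENSG00000253293.5, chromosome 7, 27170605 to 27180261) was at 87.7 and 78.8 CPM, at least 1905-fold higher. These annotated genes overlap on the same strand, so the split of reads between them is an estimate. HOXA13 (ENSG00000106031.9, chromosome 7, 27193503 to 27200091), at the 5′ end of the cluster, had the highest count in it at 112 and 102 CPM, at least 2447-fold higher. Per length the order differed: HOXA10 was at 49.9 TPM, HOXA9 at 37.9 and HOXA13 at 23.3 (means of the authors' values in U-937). HOXA11 was at 24.8 and 26.8 CPM, HOXA5 at 3.83 and 3.93 CPM and HOXA7 at 1.37 and 1.32 CPM in U-937. All 10 HOXB genes had no count in any of the 4 libraries.

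Cofactors that bind DNA with HOX proteins followed in part. MEIS1 (ENSG00000143995.20, chromosome 2, 66433452 to 66573869) was at 246 and 239 CPM in U-937 and had 1 count over the SKNO-1 pair, or 16630 times as much in U-937 (interval 2983 to 656700). PBX3 was at 14.6 and 14.8 CPM in U-937 and at 0.306 and 0.195 in SKNO-1 (log2 5.86, SE 0.30). MEIS2 went the other way, with 58.3 and 63.6 CPM in SKNO-1 against 10.7 and 11.2 (log2 -2.48, SE 0.15). Of 6 tested cofactor genes, 4 were called higher in U-937 and 1 lower, against 29.2% and 30.6% of all genes, and PBX2 was not called.

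Genes linked in the literature to RUNX1-RUNX1T1 leukaemia split between the lines. Of 14, 8 were called lower in U-937, all by at least 4-fold, against a background of 30.6% and 9.89%. A further 4 were called higher, 2 of them by at least 4-fold, against a background of 29.2% and 12.4%. The median log2 difference was -3.82. ROBO1, an axon guidance receptor, was at 109 and 126 CPM in SKNO-1 with no U-937 count, at least 2479-fold. IL5RA (ENSG00000091181.19, chromosome 3, 3066324 to 3126613), the interleukin-5 receptor chain of eosinophils, was at 93.9 and 99.6 CPM with no U-937 count, at least 2041-fold. PRAME, a tumour antigen, was at 154 and 141 CPM against 2.43 and 2.51 (log2 -5.90, SE 0.15). BAALC, TRH and CAV1 also had no U-937 count. Those higher in U-937 included POU4F1, a neural transcription factor (8.43 and 8.68 against 19.4 and 20.3 CPM), the B-cell factor PAX5 (4.69 and 4.24 against 10.8 and 8.18) and the adhesion molecule NCAM1, or CD56 (5.93 and 5.48 CPM, 1 SKNO-1 count). The PAX5 call was lost without U-937 replicate 1 (adjusted p = 0.0881).

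Stem and progenitor genes were mostly higher in SKNO-1. Of 12 tested, 7 were called lower in U-937 and 2 higher, against 30.6% and 29.2% of all genes. The median log2 difference was -1.70, and fewer were called higher without either U-937 library. KIT (ENSG00000157404.15, chromosome 4, 54657267 to 54740783), the stem cell factor receptor, had 443 and 486 CPM in SKNO-1 against 1.03 and 0.759 (log2 -9.01, SE 0.19, adjusted p = 3.75e-07). ERG, a stem cell ETS factor, was at 78.3 and 80.7 against 5.84 and 5.81 CPM. Neither gene's groups overlapped, but here and below the share of all tested genes without overlap was not counted. FLT3, the other progenitor receptor kinase, was at 28.8 and 29.8 against 4.29 and 3.73 CPM, and SOX4 at 201 and 237 against 41.5 and 41.0. EGFL7, the host gene of miR-126, was lower in U-937 as well (log2 -5.27, SE 0.52), but its SKNO-1 libraries were themselves apart at 86.9 and 33.2 CPM. The higher genes were MN1, at no more than 0.365 CPM in any library, and HLF, a stem cell factor, at 4.41 and 4.88 CPM in U-937 against 0.0306 and 0.195. MYB, which drives progenitor proliferation, was not called, at 581, 641, 609 and 625 CPM. The defining stem cell antigen CD34 was close to absent, with 9 counts in each SKNO-1 library and none in U-937, and was not tested; PROM1 and MECOM had no count in any library. Here and below, fewer cells of a type and less RNA per cell cannot be told apart in bulk RNA.

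Regulators of myeloid fate differed in both directions. Of 19 tested, 10 were called higher in U-937 and 5 lower, the latter a share close to the background of 30.6%. IRF8 (ENSG00000140968.11, chromosome 16, 85899116 to 85922606), which directs monocyte and dendritic fate, had no count in SKNO-1 and was at 107 and 103 CPM in U-937, at least 2405-fold higher. CEBPA (ENSG00000245848.3, chromosome 19, 33299934 to 33302534), which starts the granulocyte-monocyte programme, had 10.2 and 7.42 CPM in SKNO-1 against 130 and 127 (log2 3.87, SE 0.18, adjusted p = 3.12e-06). BCL6 (1.59, 0.948, 11.6 and 10.2 CPM), a repressor, and CEBPB (5.51, 4.60, 11.2 and 12.1 CPM) were also higher in U-937. On the SKNO-1 side stood CEBPD, at 5.30 and 7.08 CPM with no U-937 count, CEBPE, a factor of late granulocytes, at 17.6 and 9.04 against 2.98 and 3.27 CPM, and GFI1, a repressor of monocyte genes, at 392.3 and 393.2 against 226 and 221 CPM. SPI1, which encodes PU.1, was not called, at 26.6, 14.9, 15.6 and 11.4 CPM, and its groups overlapped. The immediate early genes FOS and EGR1 were lower in U-937 and JUN was higher.

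**Figure D2:**
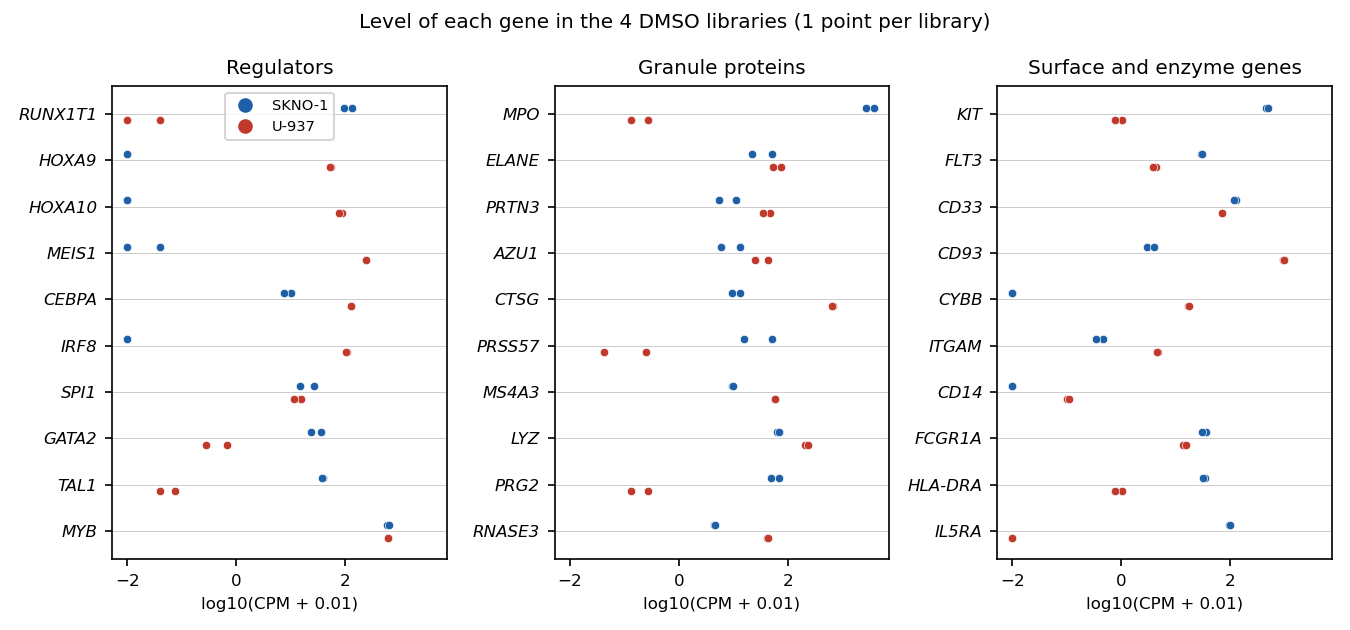
Level of 30 regulator, granule and surface genes in each of the 4 DMSO libraries, as log10(CPM + 0.01), 1 point per library, SKNO-1 blue and U-937 red. MPO, KIT, TAL1, PRG2 and IL5RA are high in SKNO-1 and the HOXA genes, MEIS1, IRF8, CD93 and CYBB in U-937, while the points of SPI1, ELANE and MYB of the lines lie close together or overlap.

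The azurophil granule programme, made at the promyelocyte stage, was present in both lines, with large differences between its members. MPO (ENSG00000005381.7, chromosome 17, 58269855 to 58280935), myeloperoxidase, had 3869 and 2776 CPM in SKNO-1 against 0.122 and 0.264 (log2 -14.06, SE 0.33, adjusted p = 4.29e-07). CTSG (ENSG00000100448.4, chromosome 14, 24573518 to 24576250), the granule protease cathepsin G, had 13.3 and 9.62 CPM in SKNO-1 against 693 and 639 (log2 5.86, SE 0.19, adjusted p = 9.72e-07). For neither gene did the lines overlap. Per length, MPO averaged 858 TPM in SKNO-1 against 11.0 for CTSG, and in U-937 CTSG averaged 819 TPM against 0.065 for MPO, so the order of these 2 genes was opposite in the lines. SRGN, the granule proteoglycan serglycin, was abundant in both, at 352 and 414 CPM in SKNO-1 against 909 and 1007, and per length it averaged 282 and 871 TPM, above CTSG in each line. Of all 13 genes of the list, 8 were called higher in U-937 and 4 lower, against 29.2% and 30.6% of all genes.

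ELANE, PRTN3 and AZU1, of the serine protease cluster on chromosome 19, were in both lines. ELANE, neutrophil elastase, had 51.8 and 22.0 CPM in SKNO-1 against 74.3 and 53.0 and was not called. PRTN3, proteinase 3, was at 11.4 and 5.50 against 47.1 and 34.6 CPM (log2 2.28, SE 0.34). AZU1, azurocidin, was at 13.4 and 5.97 against 44.2 and 24.7 CPM, but the call was lost without SKNO-1 replicate 1 (adjusted p = 0.0565) and without SKNO-1 replicate 2 (0.175). In all 3 the SKNO-1 replicates were apart from each other, replicate 1 being the higher. CFD, also on the azurophil granule list, was called lower in U-937 (log2 -0.97). That call was lost on library totals alone and without SKNO-1 replicate 1 or either U-937 library. PRSS57, another granule protease, was at 52.2 and 15.6 CPM in SKNO-1, against 0.243 and 0.033. Of the other granule genes, MS4A3, which marks granulocyte-monocyte progenitors, was at 9.65 and 9.79 against 59.3 and 58.3 CPM (log2 2.60, SE 0.14). LYZ, lysozyme, was at 63.1 and 68.1 against 210 and 237 CPM. SERPINB10 was restricted to U-937 at 7.06 and 5.74 CPM. CLEC11A, a growth factor of progenitors, was at 223 and 118 against 22.4 and 18.6 CPM.

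The 250 bases before the RefSeq start (GRCh38.p14) of CTSG, MS4A3 and, from the mast cell list below, CPA3 are shown because they are myeloid granule or membrane genes that differed between the lines in opposite directions. Capitals mark matches on either strand. The letters searched for PU.1 were GAGGAA. Those for C/EBP factors were TTGCNNAA. Those for GATA factors were AGATAA. Those for RUNX factors, TGTGGT, had no match in these windows. CTSG lies at chr14:24576251-24576500 on the minus strand and holds 2 PU.1 matches. MS4A3 lies at chr11:60056415-60056664 on the plus strand and holds 2 C/EBP matches and 1 GATA match. CPA3 lies at chr3:148865046-148865295 on the plus strand and holds 3 C/EBP, 1 PU.1 and 2 GATA matches.
CTSG: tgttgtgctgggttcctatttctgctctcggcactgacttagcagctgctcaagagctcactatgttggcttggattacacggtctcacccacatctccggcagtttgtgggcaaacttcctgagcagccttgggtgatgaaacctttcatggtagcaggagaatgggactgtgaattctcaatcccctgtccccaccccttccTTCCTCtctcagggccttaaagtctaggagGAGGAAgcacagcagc
MS4A3: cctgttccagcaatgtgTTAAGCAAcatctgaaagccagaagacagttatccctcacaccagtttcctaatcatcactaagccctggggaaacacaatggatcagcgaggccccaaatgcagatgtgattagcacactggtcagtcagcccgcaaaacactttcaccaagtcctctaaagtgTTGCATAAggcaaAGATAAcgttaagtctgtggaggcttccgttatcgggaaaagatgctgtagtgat
CPA3: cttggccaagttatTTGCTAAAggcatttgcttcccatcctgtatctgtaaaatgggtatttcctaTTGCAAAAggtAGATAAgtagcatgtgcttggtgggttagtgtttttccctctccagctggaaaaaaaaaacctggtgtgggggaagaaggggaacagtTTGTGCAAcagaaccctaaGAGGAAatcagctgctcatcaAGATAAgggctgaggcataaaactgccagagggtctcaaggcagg
Such matches are common: of 27195 RefSeq promoters of this length, 23.4% held the PU.1 letters, 9.12% those of C/EBP, 9.38% those of GATA and 10.9% those of RUNX. Among the line-restricted genes defined below with an entry in the table, the C/EBP letters stood in 14 of 138 promoters of U-937 genes (10.1%) and 9 of 195 of SKNO-1 genes (4.62%), the GATA letters in 9.42% and 8.72%, and the PU.1 letters in 18.1% and 26.7%. Among the 10072 tested protein-coding genes with an entry these shares were 6.11% for C/EBP, 4.59% for GATA and 23.1% for PU.1, and none of these differences was tested. The motifs do not overlap one another in these 3 windows, and a match describes letters, not binding.

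Genes of the later granulocyte stages were scarce in both lines. Of 18, 12 were too low to test, and LCN2, OLFM4, PGLYRP1, S100A12, ARG1 and FCGR3B had no count in any library; LTF had 3 counts, all in U-937. Of the 6 tested, 4 were called higher in U-937 and 2 lower, against 29.2% and 30.6% of all genes. Fewer were called in each direction without U-937 replicate 2. CHI3L1, a secreted chitinase-like protein, was restricted to U-937 at 17.0 and 14.1 CPM, and the calcium-binding S100A9 was at 2.49 and 3.04 CPM there against 0.0613 and 0.0558. CEACAM6, an adhesion molecule of granulocytes, was at 15.9 and 15.98 CPM in SKNO-1 against 1.95 and 2.04.

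Monocyte and macrophage genes were more often higher in U-937. Of 26 tested, 16 were called higher, 11 of them by at least 4-fold, against a background of 29.2% and 12.4%. A further 8 were called lower, 1 of them by at least 4-fold, against a background of 30.6% and 9.89%. CYBB (ENSG00000165168.7, chromosome X, 37780018 to 37813461), the catalytic subunit of the phagocyte oxidase, had no SKNO-1 count and was at 16.9 and 17.8 CPM in U-937, at least 396-fold higher. FCN1, a monocyte ficolin, likewise had no SKNO-1 count and was at 21.0 and 20.6 CPM. CD36, a scavenger receptor, was at 25.6 and 32.6 CPM in U-937 with 2 SKNO-1 counts. The integrin chains ITGAM (0.460, 0.335, 4.68 and 4.45 CPM) and ITGAX (0.337, 0.391, 6.08 and 5.91 CPM) and the inhibitory receptor SIRPA (6.25, 5.61, 138 and 121 CPM) were all higher in U-937. In all 6 genes each U-937 library was above each SKNO-1 library. They were chosen among those called higher, which makes this likely, so it is no separate support.

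The list was not uniform, although its share of lower calls was close to that of all genes. NCF4, a subunit of the same oxidase in the cytosol, was higher in SKNO-1 at 150 and 103 against 55.0 and 46.9 CPM, the opposite direction to CYBB. FCGR1A, the high-affinity IgG receptor, was at 35.5 and 30.1 against 13.6 and 15.3 CPM, and CD33, a general myeloid antigen, at 127 and 117 against 70.9 and 69.2; near-identical copies make the FCGR1A estimate uncertain. CD4 was also higher in SKNO-1 (224 and 199 against 112 and 109 CPM). Unlike CD36, FCN1 and CYBB in U-937, some markers of the mature cells were near 0 in both lines. CD14 had 3 counts in each U-937 library and none in SKNO-1. CD163 had 1 count in each SKNO-1 library, and CSF1R did not exceed 0.891 CPM. Its call as higher in U-937 was lost in 8 of 12 alternatives.

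The eosinophil, basophil and mast cell list stood mainly on the SKNO-1 side. Of 17 tested, 11 were called lower in U-937, all by at least 4-fold, against a background of 30.6% and 9.89%. A further 5 were called higher, 4 of them by at least 4-fold, against a background of 29.2% and 12.4%. Fewer were called higher without either U-937 library. The median log2 difference was -6.001. PRG2 (ENSG00000186652.10, chromosome 11, 57386780 to 57390650), eosinophil major basic protein, had 69.4 and 48.7 CPM in SKNO-1 against 0.122 and 0.264 (log2 -8.25, SE 0.35). EPX, eosinophil peroxidase, CLC, the Charcot-Leyden crystal protein, and CPA3, mast cell carboxypeptidase, had no U-937 count and were at 10.0 and 7.08, 23.10 and 22.96, and 9.83 and 10.6 CPM in SKNO-1. GATA2, the shared regulator of these lineages, was at 35.5 and 24.1 against 0.274 and 0.660 CPM (64.1-fold, log2 SE 0.39). FCER1A and HDC, of basophils and mast cells, had no U-937 count either but were below 1 CPM in SKNO-1.

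Within the same list, the ribonucleases did not follow. RNASE2 was not called, at 145, 136, 123 and 130 CPM, and RNASE3, the eosinophil cationic protein, was higher in U-937 at 40.9 and 43.5 against 4.44 and 4.66 CPM (log2 3.21, SE 0.17); these similar genes can share reads. The tryptases were discordant, TPSAB1 at 29.1 and 23.7 CPM in U-937 with 2 SKNO-1 counts and TPSB2 at 1.53 and 0.391 CPM in SKNO-1 against 0.0608 and 0.132. The copies are nearly identical, so their estimates are uncertain, and the TPSB2 call was lost without SKNO-1 replicate 1 (adjusted p = 0.054) and without U-937 replicate 1 (0.0721).

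Other lineages were sparsely represented. TAL1, an early haematopoietic factor, was at 39.2 and 37.7 CPM in SKNO-1 and had 3 counts over the U-937 pair, or 809 times as much in SKNO-1 (interval 276 to 3923). GATA1 was at 0.735 and 0.558 CPM in SKNO-1 with no U-937 count, and ITGA2B, the platelet integrin, at 13.0 and 7.53 against 0.0304 and 0.099. The defining erythroid and platelet genes HBB, HBA2, ALAS2, PF4 and GP9 had no count in any library, and 20 of the 28 genes were not tested. Summed over the list, SKNO-1 was at 228 and 199 CPM and U-937 at 186.5 and 190.3, most of it from FLI1, whose call as higher in U-937 was lost without U-937 replicate 1 (adjusted p = 0.126) or 2 (0.154). Of 24 lymphoid genes, CD3D, CD3E, CD5, LCK and MS4A1 had no count anywhere. Exceptions were IGLL1, a pre-B light chain (136 and 78.6 against 8.18 and 6.99 CPM), CD79B (30.6 and 20.5 against 0.274 and 0.099), and in U-937 EBF1, a B-cell factor (3.44 and 3.96 CPM, no SKNO-1 count), and NKG7 (93.1 and 85.1 against 1.93 and 1.65). COL1A2, COL3A1, CDH5, EPCAM and KRT19 of stromal, endothelial and epithelial cells had no count, while PECAM1 was higher in U-937 (56.5 and 61.9 against 7.38 and 8.68 CPM) and KDR was restricted to SKNO-1 (8.21 and 10.3 CPM).

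MHC class II genes, which present antigen, were mostly higher in SKNO-1 but not at one level. Of 8 tested, 5 were called lower in U-937 and 2 higher, against 30.6% and 29.2% of all genes. HLA-DRA (ENSG00000204287.14, chromosome 6, 32439878 to 32445046) had 35.0 and 31.2 CPM in SKNO-1 against 1.00 and 0.759 (log2 -5.22, SE 0.23, adjusted p = 2.5e-06). CD74, the invariant chain, was at 119 and 94.1 against 18.8 and 19.2 CPM, and CIITA, the class II transactivator, at 22.7 and 20.3 against 6.39 and 5.11 CPM. HLA-DRB1 was not called (4.41, 3.403, 5.54 and 4.26 CPM); it has many similar copies, and reads of other alleles may be missed. HLA-DQA1 and HLA-DQB1 had no count. The calls of HLA-DMA and HLA-DMB as higher in U-937 were lost without SKNO-1 replicate 2 (adjusted p = 0.0915 and 0.073) and without U-937 replicate 1 (0.221 and 0.0645), HLA-DMA also without U-937 replicate 2 (0.083), where HLA-DMB was too low to test.

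**Figure D3:**
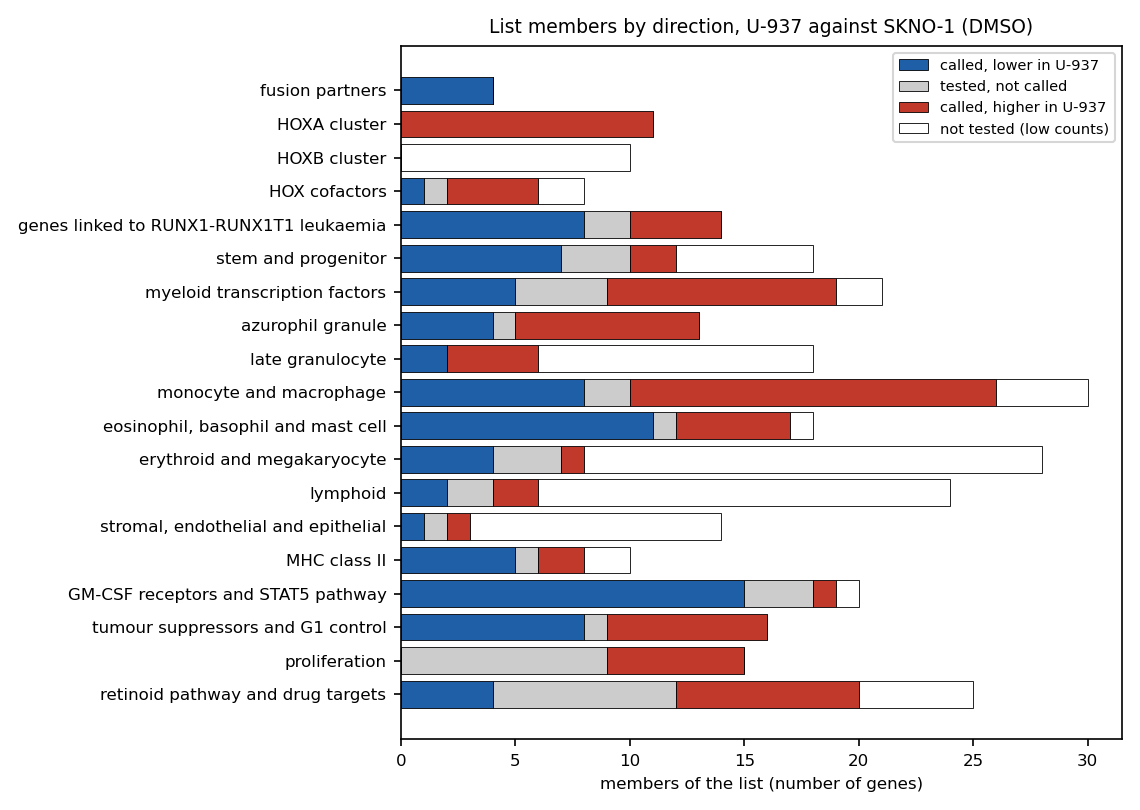
Number of members of each of 19 gene lists that were called lower in U-937 (blue), tested but not called (grey), called higher in U-937 (red) or not tested for low counts (white); the horizontal axis counts genes. The HOXA bar is all red, the HOXB bar all white, and 15 of 20 members of the GM-CSF and STAT5 list are blue.

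The GM-CSF receptor and STAT5 pathway was higher in SKNO-1, the line whose medium held GM-CSF. GM-CSF binds a specific alpha chain and the shared beta chain, JAK2 then activates STAT5, and STAT5 switches on feedback inhibitors and survival genes. Of 19 tested genes, 15 were called lower in U-937, against 30.6% of all genes, and 1 was called higher; the median log2 difference was -1.46. The beta chain CSF2RB (ENSG00000100368.14, chromosome 22, 36913628 to 36940439) had 56.3 and 50.9 CPM in SKNO-1 against 10.8 and 11.9 (log2 -2.24, SE 0.15, adjusted p = 1.76e-05). The alpha chain CSF2RA was the higher one in U-937, at 9.04 and 10.5 against 17.6 and 19.99 CPM, a call lost without U-937 replicate 2 (adjusted p = 0.0553). The receptor chains thus differed in opposite directions. The gene of the ligand, CSF2, had no count in any library.

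Most downstream members were higher in SKNO-1. STAT5A (161, 124, 63.1 and 57.0 CPM) and STAT5B (183, 164, 65.1 and 61.9 CPM) were higher in SKNO-1, as was JAK2, whose call was lost without U-937 replicate 1 (adjusted p = 0.0771) or 2 (0.0856). Among the feedback inhibitors, CISH (ENSG00000114737.15, chromosome 3, 50606489 to 50611774) was at 57.2 and 47.2 against 11.3 and 12.3 CPM (log2 -2.14, SE 0.16), SOCS2 at 111 and 105 against 10.8 and 10.1 CPM (log2 -3.37, SE 0.13) and SOCS3 at 33.5 and 26.6 against 0.274 and 0.264 CPM. The kinase PIM1 was at 405 and 362 against 45.4 and 50.9 CPM (7.98-fold, log2 SE 0.13), while its relative PIM2 was not called (26.8, 22.7, 25.3 and 30.4 CPM). OSM, oncostatin M, was at 18.3 and 11.0 against 0.243 and 0.231 CPM, and IL2RA, or CD25, was restricted to SKNO-1 at 24.6 and 24.3 CPM. JAK1 and PTPN6 were not called. A difference between the lines in the presence of GM-CSF was not measured, since no U-937 library had it and no SKNO-1 library was without it.

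The 250 bases before the RefSeq start of CISH, a textbook STAT5 target among the list members called lower in U-937, are shown. They lie at chr3:50611775-50612024 (GRCh38.p14, minus strand), with the matches to TTCNNNGAA, the STAT5 letters, in capitals. That pattern is its own reverse complement, so it was counted once per position.
CISH: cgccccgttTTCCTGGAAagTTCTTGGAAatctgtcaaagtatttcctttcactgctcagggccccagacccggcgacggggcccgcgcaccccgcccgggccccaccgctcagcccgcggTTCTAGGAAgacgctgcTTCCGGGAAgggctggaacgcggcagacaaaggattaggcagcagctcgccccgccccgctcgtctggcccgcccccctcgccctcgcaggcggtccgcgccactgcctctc
The window holds 4 matches, and 6.79% of all 27195 promoters of this length held at least 1. The share was 5.59% among tested protein-coding genes with an entry. Among the line-restricted genes defined below it was 6.15% for SKNO-1 and 3.62% for U-937, a difference that was not tested.

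Genes of growth control differed without a common direction. Of 16 tumour suppressors and G1 regulators, 7 were called higher in U-937 and 8 lower, against 29.2% and 30.6% of all genes. The D-type cyclins differed by member: CCND2, on the STAT5 list, was at 420 and 471 against 183 and 186 CPM, CCND3 at 12.2 and 9.32 against 70.3 and 74.5 CPM, and CCND1 was near the limit in both (0.0919, 0.167, 1.22 and 1.06 CPM). CDK6 (1438, 1892, 792 and 857 CPM) and MYC (474, 406, 213 and 202 CPM) were higher in SKNO-1, and RB1 (105, 131, 191 and 212 CPM) and NF1 (61.0, 82.7, 135 and 144 CPM) in U-937.

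Against 29.2% of all genes called higher and 59.8% called in either direction, 6 of 15 proliferation genes were called higher in U-937. The other 9 were not called, and none of the 6 was at least 4-fold apart. The replication genes MCM6 (246, 259, 612 and 659 CPM) and PCNA (228, 224, 444 and 478 CPM) and the mitotic kinase PLK1 (25.1, 20.2, 61.2 and 57.0 CPM) were the largest of these. MKI67 was not called (594, 800, 879 and 895 CPM), nor were TOP2A and CDK1. This count rested on the SKNO-1 pair: it was 10 without SKNO-1 replicate 2, and 2 members were called lower without SKNO-1 replicate 1.

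Several targets of the drugs used elsewhere in the series passed no test of a difference before treatment, while others were called. KDM1A, the LSD1 demethylase, was at 285, 283, 242 and 260 CPM, HDAC1 at 135, 133, 158 and 168 CPM, HDAC2 at 179, 201, 199 and 227 CPM and the scaffold RCOR1 at 117, 139, 115 and 118 CPM. None of these 4 was called, with fitted log2 differences of -0.18, 0.28, 0.16 and -0.13 (SE 0.10, 0.11, 0.12 and 0.13). RCOR2, another CoREST scaffold, was called lower in U-937, at 3.25 and 1.93 against 0.213 and 0.165 CPM (log2 -3.74, SE 0.45). RARA, the main myeloid retinoic acid receptor, was not called either (10.3, 6.78, 11.2 and 9.07 CPM). Its partner RXRA (7.35, 5.38, 26.1 and 23.03 CPM) and RARG (0.858, 0.920, 5.17 and 6.63 CPM) were higher in U-937, and RARB had no count in any library. Of the genes that ATRA is known to induce or that handle retinoids, DHRS3 was in U-937 only (3.41 and 2.74 CPM), TGM2 was at 2.85 and 2.23 CPM in SKNO-1 with 1 U-937 count, and RDH10 was higher in SKNO-1 (79.6, 92.0, 17.2 and 21.2 CPM). Of 20 tested on this list, 8 were called higher in U-937 and 4 lower, against 29.2% and 30.6% of all genes. The share called in either direction was close to the 59.8% of all genes, and fewer were called higher without U-937 replicate 2.

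A further set of genes was expressed in 1 line only, with a mean of at least 5 CPM there and at most 3 counts over both libraries of the other. There were 217 such genes in U-937 (185 protein-coding, 22 long noncoding RNAs) and 310 in SKNO-1 (264 and 26), and 136 and 225 of them had no count at all in the other line. The 10 most abundant protein-coding ones in SKNO-1 were LAPTM4B, MEST, NRIP1, YBX3, ZNF141, CPLANE1, ZNF91, LRP6, FBN2 and PTPN13. LAPTM4B, a lysosomal membrane protein found in stem cell signatures of acute myeloid leukaemia, was at 251 and 256 CPM with 1 U-937 count, or 16030 times as much in SKNO-1 (interval 2876 to 633100). The imprinted gene MEST was at 219 and 219 CPM with 1 U-937 count. NRIP1, a nuclear receptor corepressor that is itself a retinoid target, was at 189 and 221 CPM with none, at least 4331-fold higher. LRP6, the Wnt coreceptor, was at 132 and 153 CPM with none.

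In U-937 the 10 were MEIS1, LAMP5, CES1, BEX1, SERPINB2, XAGE1B, EIF4E3, IGF2BP3, ASS1 and CCDC144A. LAMP5, a lysosomal protein of plasmacytoid dendritic cells, was at 228 and 213 CPM with no SKNO-1 count, at least 5039-fold. CES1, the monocyte carboxylesterase, was at 211 and 218 CPM, at least 4894-fold. SERPINB2, a plasminogen activator inhibitor of activated monocytes, was at 132 and 152 CPM, and the fetal RNA-binding protein IGF2BP3 at 118 and 126 CPM. ASS1, the enzyme that makes arginine from citrulline together with its partner, was at 121 and 115 CPM against 3 SKNO-1 counts. XAGE1B and CCDC144A have near-identical copies, and their estimates are uncertain. The most abundant restricted noncoding RNAs were FIRRE (59.9 and 62.5 CPM), HCG11 and PROSER2-AS1 in SKNO-1, and ERVMER61-1 (9.31 and 10.6 CPM), FAM106A and HOXA11-AS in U-937. The use of strand in counting is not given in the sources used here, so HOXA11-AS and PROSER2-AS1 cannot be separated from the genes they overlap. Only 1 run of 3 or more neighbouring protein-coding genes was restricted to the same line: RUNX1T1, TRIQK (19.1 and 25.9 CPM) and FAM92A (66.5 and 88.0 CPM) on chromosome 8, all in SKNO-1.

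Large graded differences, in genes with at least 1 CPM in each line, included surface and cytoskeletal genes. CD93 (ENSG00000125810.10, chromosome 20, 23079360 to 23086324), a receptor of monocytes and early progenitors, had 3.003 and 4.02 CPM in SKNO-1 against 929 and 974, 270-fold higher (log2 8.08, SE 0.18). LCP1 (ENSG00000136167.14, chromosome 13, 46125920 to 46211871), the leukocyte actin-bundling protein L-plastin, was at 21.4 and 21.2 CPM against 2117 and 2280, 103-fold higher (log2 6.69, SE 0.13). AHNAK, a large scaffold protein, was at 13.5 and 15.5 against 880 and 954 CPM, and CCL5, a chemokine, at 1.47 and 0.948 against 63.6 and 68.3 CPM. CRYBG1, RAB27B, CTSG and S100P were the others named on this side. In SKNO-1 the named genes were STON2, TSPOAP1, SORT1, CHD7, TESPA1, HOMER2, STON1 and SAMSN1. The endocytic adaptors STON2 (252 and 283 against 1.43 and 1.29 CPM) and STON1 (69.9 and 88.1 against 1.09 and 1.32 CPM) were both among them. SORT1, sortilin, a sorting receptor, was at 153 and 149 against 1.61 and 1.78 CPM, and SAMSN1, a haematopoietic adaptor, at 399 and 460 against 6.93 and 7.16.

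The contrast was repeated in the treated libraries, which share no sample with the DMSO comparison. In these, 78.2% of tested genes were called with ATRA, 74.2% with Corin and 77.8% with both. Of the 2125 genes at least 4-fold higher in U-937 with DMSO, 1799 were called in the same direction with ATRA, 1835 with Corin and 1657 with both, and 3, 19 and 53 in the opposite one. Of the 1697 lower genes, 1523, 1639 and 1534 were called in the same direction and 18, 1 and 37 in the opposite one. Genes too low to test under a treatment count as not called here: 1850, 1972 and 1864 of the 2125 and 1589, 1660 and 1634 of the 1697 were tested. Among all calls, whatever their size, opposite calls were more frequent: 116, 84 and 450 of the 5013 higher genes and 147, 45 and 457 of the 5248 lower ones. The same direction was called with both agents for 71.8% and 76.8% of them. Line-restricted genes seldom came on in the silent line: of the 217 U-937 genes, 193, 153 and 143 stayed at no more than 3 counts in SKNO-1 with ATRA, Corin and both, and 1, 2 and 4 reached 1 CPM. Of the 310 SKNO-1 genes, 281, 283 and 264 stayed at no more than 3 counts in U-937, and 3 reached 1 CPM, all with both agents. DGKI, a diacylglycerol kinase singled out after its values were seen, was the only one of all these to reach 5 CPM, at 5.76 and 4.71 CPM on library totals in SKNO-1 with ATRA, 7.35 and 8.36 with Corin and 52.3 and 55.7 with both. GM-CSF was again in the SKNO-1 medium only.

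Members differed in how steady the contrast was. For MPO the fitted log2 difference, -14.06 with DMSO, was -13.40, -13.98 and -13.87 under ATRA, Corin and their combination. CISH ran from -2.15 to -1.81 over the 4 conditions and CSF2RB from -2.30 to -1.27. ITGAM, by contrast, had a log2 difference of 3.52 with DMSO and of 6.75, 0.53 and 1.69 under ATRA, Corin and their combination. In CPM scaled over all 16 libraries, ITGAM was at 0.394 ± 0.079 in SKNO-1 with DMSO and 117 ± 0.763 with both agents, and at 4.54 ± 0.163 and 360 ± 9.52 in U-937 (SD, n = 2). MYB, equal with DMSO, was lower in U-937 under each treatment (log2 -0.65, -0.56 and -1.26).

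**Figure D4:**
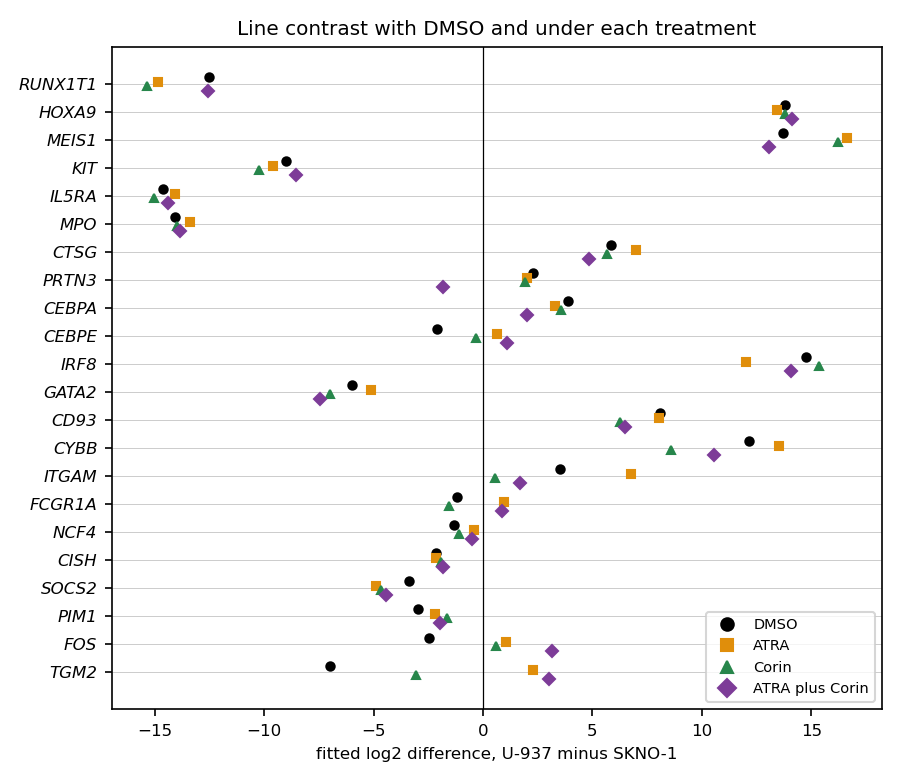
Fitted log2 difference, U-937 minus SKNO-1, of 22 genes in separate fits of the DMSO, ATRA, Corin and ATRA plus Corin libraries (2 against 2 each). RUNX1T1, HOXA9, MEIS1, KIT and MPO keep their side under each treatment, whereas FOS and TGM2 lie left of 0 with DMSO and right of 0 with both agents; values beyond about 10 rest on 0 or a few counts in 1 line and depend on the fit's prior count.

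Differences were spread unevenly over chromosomes. The median log2 difference of tested genes was lowest on chromosome 5 (-0.67 over 798 genes), 22 (-0.49) and 4 (-0.44), and highest on X (0.46), 15 (0.43) and 20 (0.41). Over genes with at least 5 CPM in both lines these medians were -0.60, -0.53, -0.39, 0.45, 0.33 and 0.31. On that measure chromosomes 9 (-0.497), 12 (-0.431), 14 (-0.428) and 11 (-0.397) were lower than chromosome 4 (-0.395). Chromosome 7, which carries the HOXA cluster, stood at 0.01 on that measure and at 0.16 over all tested genes. On library totals alone each median over all tested genes was higher by about the shift given above, and the chromosomes named first kept their order. Copy number was not measured here.

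**Figure D5:**
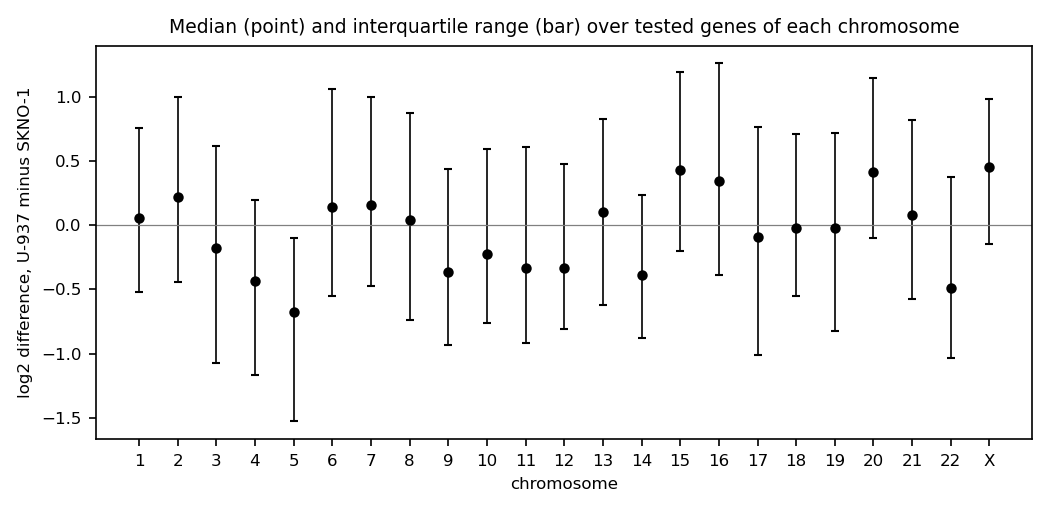
Median (points) and interquartile range (bars) of the log2 difference, U-937 minus SKNO-1, over the tested genes of each chromosome with DMSO. Chromosome 5 is lowest at -0.67, with its upper quartile below 0, and X highest at 0.46.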

How the data were processed

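Per the labels' protocols, total RNA from DNase-treated extracts was made into stranded libraries and sequenced as paired-end reads of 100 bp. Per the submitters' processing notes, Trimmomatic, STAR, RSEM, deepTools and DESeq2 were used with the hg38 build, with no role or version given; the annotation release is not given in the sources used here. The authors deposited RSEM estimated counts per gene (60603 entries) and, in the files of single libraries, TPM values, which were used as deposited. Of the positive estimated counts 20.7% were not whole, because RSEM divides reads among genes they fit. Counts were rounded, 45 chromosome Y copies of pseudoautosomal genes were added to their X entries, and 60261 genes were matched to GENCODE 44 for position and GC content.

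The 4 DMSO libraries were fitted with edgeR 4.0.16 in R 4.3.3 (filterByExpr, TMM, robust quasi-likelihood F test, 2 residual degrees of freedom, common biological coefficient of variation 0.156). The SE is the log2 difference divided by the root of F and is not given where a line has no count. Folds against no count use a floor of 3 counts over the pair; these and the exact 95% counting intervals cover counting error only, as reads carry no molecular identifiers. Alternatives included DESeq2 1.42.0, other scalings, no filter, all 16 libraries, a replicate block, GC correction and each library left out. Named genes were the 10 most abundant protein-coding and 3 noncoding line-restricted genes per line, the 8 largest graded differences in each direction (at least 1 CPM in each line and 20 in the higher), runs of neighbours, and 317 list genes. The comparison, the lists and this rule were chosen with earlier results of these data known. The fit was tested on simulated counts. Some list members are not reported here.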

Additional observations from a re-analysis of the deposited data

Results flagged for a closer look

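Of the 223 individually described genes that were called with DMSO, 10 were called in the opposite direction with ATRA, 4 with Corin and 21 with both agents. Over all calls, these were 116, 84 and 450 of the 5013 higher genes and 147, 45 and 457 of the 5248 lower ones. With both agents, the share among the described genes was close to that among all calls. The described genes given here were called in opposite directions, were at least 4-fold apart with DMSO and passed a test of the difference itself. That test was the interaction of line and treatment in an edgeR fit of all 16 libraries, Benjamini-Hochberg adjusted. These interaction contrasts use the DMSO libraries of both lines, so the values of 1 gene share them. The opposite calls that picked the genes came from the same libraries and make a pass likely. The interaction p-values are therefore no separate support. TGM2, a transglutaminase induced by ATRA, differed most: its contrast moved by 9.31 on the log2 scale with ATRA (adjusted p = 1.22e-11) and by 9.96 with both agents (adjusted p = 5.49e-13), from -7.02 with DMSO to 2.31 and 3.01. In U-937 it had 1 count over the DMSO pair and was at 76.7 ± 1.36 CPM with ATRA (SD, n = 2), against 2.52 ± 0.378 and 15.6 ± 0.801 CPM in SKNO-1. FOS, an immediate early factor, moved by 3.50 with ATRA, 3.03 with Corin and 5.56 with both. CEBPE, the late granulocyte factor, moved by 2.72 with ATRA and 3.12 with both, and stood at 13.2 ± 5.71 CPM in SKNO-1 and 3.10 ± 0.200 in U-937 with DMSO against 14.1 ± 0.077 and 28.9 ± 1.52 with both. PRTN3 moved the other way, by -4.19 with both agents, at 67.1 ± 5.64 CPM in SKNO-1 and 18.0 ± 0.625 in U-937. CCND1 moved by -4.62 with Corin and -4.65 with both, at levels of no more than 1.29 CPM in any group mean.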

How the results depend on the processing

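The 4 libraries support statements on large differences better than on small ones. Leaving out each library in turn gave 6871 to 11991 called genes, 3386 to 5994 of them higher in U-937 and 3485 to 5997 lower; genes called and at least 4-fold apart numbered 3680 to 4200, and line-restricted genes 214 to 251 in U-937 and 305 to 346 in SKNO-1. The total called was 9424 with DESeq2, 10048 on library totals, 10189 with DESeq2's size factors, 11876 without a filter, 12129 with the GC trend removed and 12871 with all 16 libraries. The labels' replicate numbers are not known to pair the samples: deviations of same-numbered libraries correlated at 0.528 across genes, with 2 pairs only. The replicate block gave 11237 calls, and 12209 together with the GC correction. Under the block 8 myeloid transcription factors were called lower, against 5, and 2 proliferation genes, against none (edgeR), and the calls of CSF1R and SIGLEC8 were lost. The number of line-restricted genes depended on its limits: in U-937 it was 136 when no count was allowed, 511 at a minimum of 1 CPM and 141 at 10 CPM, and in SKNO-1 596 at 1 CPM. Of the 223 individually described called genes, 192 kept the call in all 12 alternatives in which they were tested, 31 lost it in at least 1, and 17 of these only when a library was left out; none changed direction. Near-identical copies, unstated strand use and the absence of a U-937 group with GM-CSF limit the comparison further.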

Other observations

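Genes with a ZNF symbol were looked at after 2 of them, ZNF141 and ZNF91, appeared among the most abundant genes restricted to SKNO-1, so their counts are a description of a set chosen after its values were seen. Most such genes encode zinc finger proteins, and the largest family among them represses transposable elements. Of 433 tested protein-coding genes with a ZNF symbol, 255 were called lower in U-937 (58.9%) and 57 higher (13.2%), against 32.8% and 30.2% of all 12852 tested protein-coding genes. The 214 on chromosome 19 were more one-sided, with 153 lower, 7 higher and a median log2 difference of -1.23. The 755 other protein-coding genes of that chromosome had a median of 0.22, with 117 lower and 233 higher. Elsewhere in the genome 102 of 219 ZNF genes were lower and 50 higher. Line-restricted genes of this kind numbered 34 in SKNO-1 and 2 in U-937. ZNF141, on chromosome 4, was at 147 and 195 CPM in SKNO-1 with no U-937 count, and ZNF91, on chromosome 19, at 139 and 157 CPM with 2. ZNF813, ZNF772, ZNF43 and ZNF525 on the same chromosome averaged 48.8, 44.3, 42.3 and 36.5 CPM in SKNO-1, with no U-937 count. The 2 in U-937 were ZNF618 at 33.0 CPM and ZNF536 at 8.42 CPM. These genes are similar to one another, so the division of reads among them is an estimate, and whether sequence similarity or the GC-linked spread of the SKNO-1 libraries plays a part was not tested.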
